A study of Homo sapiens with 7 samples.

Results

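Distal regions open only in definitive endoderm were taken from 7 ATAC-seq peak lists of H1 human embryonic stem cells, an established line, and their derivatives. In ATAC-seq the Tn5 transposase cuts and tags DNA where chromatin is open. A peak was called strong when its number in its own list, which orders peaks from the most to the least significant, was at most 80000. Strong peaks of all 7 lists on chromosomes 1 to 22 and X were merged where they overlapped, which gave 167407 regions, and 149700 of these lay more than 1 kb from both ends of every protein-coding gene. A distal region was a member when it overlapped a strong peak in both definitive endoderm libraries and no peak of any number in the other 5 libraries. The rule found 3782 members, or 2.53% of all distal regions. Before the distance rule, 3846 regions met it, 2.3% of all merged regions. The members were chosen by peak presence and peak number in these libraries, so their levels in the hDE libraries and their absence elsewhere are descriptions and carry no test.

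Cells were sampled on the way from stem cell to pharyngeal endoderm, and the labels name no genotype or treatment beside the stage. The stages and their short names were the stem cells themselves, with 2 libraries (hESC), definitive endoderm, with 2 (hDE), endoderm of the anterior foregut, with 2 (hAFE), and endoderm of the pharyngeal foregut, with 1 (hPFE). Titles of the first 4 of these libraries mark them as re-analysed data while those of the last 3 do not, so source and stage cannot be told apart in a comparison of hDE with hAFE or hPFE. Nothing in the labels says that replicates came from separate cultures, and hPFE had no replicate.

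Definitive endoderm is the germ layer that gives rise to the lining of the gut and to the organs that bud from it. It forms under Nodal signalling through a mesendoderm state marked by the T-box factor EOMES, and is then held by GATA, SOX17 and FOXA factors, of which the GATA and FOXA proteins can bind sites in closed chromatin. Distal open regions include enhancers, stretches of DNA that bind such factors and act on genes at a distance. ATAC-seq shows that a region is accessible, not that it is active or which gene it acts on. In a bulk library, accessibility in a small share of the cells and weak accessibility in all of them cannot be told apart.

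Sequence was at hand only where a member overlapped a RefSeq promoter window, from 250 bases before to 50 bases after the start of a transcript (GRCh38.p14, the RefSeq assembly of hg38). This was so for 11 of the 3782 members. The 4 windows that held the summits of both hDE libraries are printed 5′ to 3′ on the transcript's strand, since they show the bases at the point of highest accessibility. All 4 belong to long noncoding or uncharacterised transcripts. The rule removed the ends of protein-coding gene spans but not every start site. Of the 11 windows, 1 was at the protein-coding gene CNGA4, and it held the summit of hDE replicate 2 only. Capitals mark the motif of the GATA factors spelled AGATAA, that of FOXA proteins spelled TGTTTAC, a short form of the T-box motif spelled AGGTGT, the SOX motif spelled ACAATG or, in its second form, ACAAAG, and the motif of OTX and GSC spelled TAATCC, each in either orientation.
TRIM67-AS1, chr1:231187578-231187877, minus strand: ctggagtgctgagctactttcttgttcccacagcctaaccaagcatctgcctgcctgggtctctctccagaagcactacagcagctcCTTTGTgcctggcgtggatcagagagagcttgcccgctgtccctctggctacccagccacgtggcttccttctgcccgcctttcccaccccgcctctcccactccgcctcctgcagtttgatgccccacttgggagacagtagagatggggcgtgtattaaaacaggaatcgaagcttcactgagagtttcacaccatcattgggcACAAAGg
LOC105374211, chr3:170767665-170767961, plus strand: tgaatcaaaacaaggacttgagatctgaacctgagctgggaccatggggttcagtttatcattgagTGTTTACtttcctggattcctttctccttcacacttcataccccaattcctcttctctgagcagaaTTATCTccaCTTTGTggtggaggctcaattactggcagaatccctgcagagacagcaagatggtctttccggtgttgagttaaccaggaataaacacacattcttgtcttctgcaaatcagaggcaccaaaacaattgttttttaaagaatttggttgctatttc
LINC00410, chr13:90926548-90926847, minus strand: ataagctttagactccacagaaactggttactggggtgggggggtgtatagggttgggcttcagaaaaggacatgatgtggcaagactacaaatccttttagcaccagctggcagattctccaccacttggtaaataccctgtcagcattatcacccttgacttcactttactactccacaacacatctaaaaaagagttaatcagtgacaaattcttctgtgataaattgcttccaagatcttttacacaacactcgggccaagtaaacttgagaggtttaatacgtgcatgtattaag
G2E3-AS1, chr14:30577308-30577607, minus strand: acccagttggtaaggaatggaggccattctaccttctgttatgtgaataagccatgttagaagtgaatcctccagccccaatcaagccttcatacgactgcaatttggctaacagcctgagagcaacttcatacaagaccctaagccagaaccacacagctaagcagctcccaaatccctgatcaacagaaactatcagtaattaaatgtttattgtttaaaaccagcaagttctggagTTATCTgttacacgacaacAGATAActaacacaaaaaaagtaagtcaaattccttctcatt

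The LOC105374211 window held 1 match each to the FOXA, GATA and second SOX form, and the region was open at fold 5.67 in hDE replicate 1 and 10.9 in hDE replicate 2. The G2E3-AS1 window held 2 GATA matches and had folds of 4.75 and 12.9. In the TRIM67-AS1 window, 2 SOX matches lay in a region with folds of 6.16 and 10.99. The LINC00410 window had the highest fold of the 4 in both libraries, 8.61 and 17.6, and none of these letters. Among 34789 RefSeq promoter windows of 300 bases, AGATAA was found in 10.4%, TGTTTAC in 3.42%, AGGTGT in 11.4%, ACAATG in 10.7%, ACAAAG in 16.1% and TAATCC in 6.34%. A match is a description of the letters and not a bound site, and these 4 windows stand for themselves and not for the other members.

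Fold enrichment is the authors' value for a peak's summit over the background local to that peak. Over the 3782 members the fold had a median of 6.32 in hDE replicate 1, with a range from 2.41 to 19.6, and of 13.2 in hDE replicate 2, with a range from 3.78 to 29.1. The fold was higher in replicate 2 at 3714 members (98.2%), and at 849 members (22.4%) the libraries lay within 1.5 times of each other. The genome-wide background, which grows with depth, was 4.58 cut sites in replicate 1 and 7.94 in replicate 2. Depth moved with this difference, and its part in it was not tested.

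Summits were also set against the genome-wide background of their own library. The median member stood 9.39 times above it in replicate 1, at 43 cut sites, and 27.2 times above it in replicate 2, at 216 cut sites. Among all 37036 distal regions strong in both hDE libraries, the medians were 10.9 and 26.8 times, so the members' median was near this in replicate 2 and lower in replicate 1. Across the 3782 members, the log2 fold of the libraries had a Pearson r of 0.52 and a Spearman rho of 0.48. These are descriptions across regions that share 2 libraries and are not independent replicates.

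**Figure D1:**
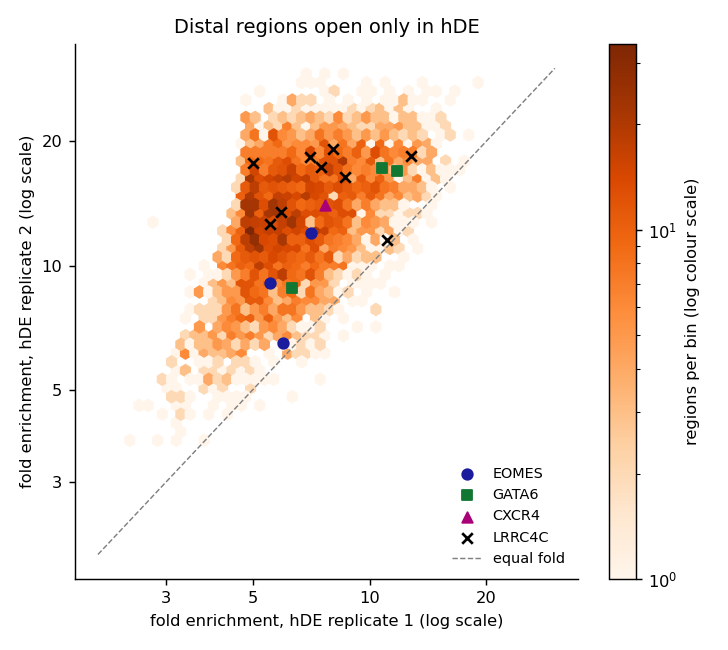
Fold enrichment of the 3782 members in hDE replicate 1 (x axis) and hDE replicate 2 (y axis), both on log scales, with colour giving the number of regions per bin and symbols marking the members of EOMES, GATA6, CXCR4 and LRRC4C. Most of the cloud lies above the dashed line of equal fold, and 3714 members had the higher fold in replicate 2.

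The libraries placed their summits at nearly the same base. The median offset was 14 bases, 3452 members (91.3%) had summits within 50 bases of each other and 3633 (96.1%) within 100 bases. The median member was 713.5 bases wide. Only 324 members (8.57%) had a peak number of at most 20000 in both hDE libraries, and 1269 (33.6%) of at most 40000.

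At the limit of 80000, the members just inside lay inside SRPK2, a kinase of splicing factors (chr7:105327799-105328530, peak number 79987 in replicate 1, folds 4.62 and 11.8), and beside LGR5 (chr12:71594259-71594769, peak number 79993 in replicate 2, folds 5.51 and 7.29). The regions just outside were at EPB41L2 (chr6:130994707-130995273, peak number 80009, folds 4.17 and 9.20) and TMEM123 (chr11:102481076-102481766, peak number 80014, folds 4.38 and 9.52). Values on both sides of the limit were alike, and 4354 further distal regions had a peak in both hDE libraries, strong in 1 of them, and none in the other 5.

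Absence here means that the list holds no peak there, and each list was limited to 300000 peaks. The weakest deposited summit of the other 5 libraries stood at most 3.46 times above its library's background. Strong summits stood at least 5.68 times above background in hDE replicate 1 and 12.2 times in replicate 2, so the rule itself places every member above that level. Of the 37036 distal regions strong in both hDE libraries, 10.2% were members, 2989 had a peak in 1 other library, and 15988 had one in all 5. Where 1 other library had a peak, it was hAFE replicate 1 in 1106 regions, hAFE replicate 2 in 585, hESC replicate 2 in 572, hPFE in 435 and hESC replicate 1 in 291. The background of the other 5 libraries ran from 2.11 to 5.66, below the 7.94 of hDE replicate 2. The 4.58 of hDE replicate 1 lay below hPFE (5.66) and hESC replicate 2 (4.62). The part of depth in the absences was not tested.

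The 10 members whose worse peak number was best are described here, and 5 of them lie on chromosome 6. Of all 3782 members, 239 were on chromosome 6, or 2.52% of its distal regions, against 2.53% genome-wide. The first, chr6:95356959-95358005, had folds of 14.8 and 18.7 and lay 219530 bases from MANEA, a Golgi mannosidase. A member inside KHDRBS2, an RNA-binding protein gene, at chr6:62119133-62120000 had folds of 16.0 and 21.1. The member at chr6:137405367-137406279, with folds of 14.9 and 17.1, lay 85920 bases from OLIG3, a bHLH factor.

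The others of these 10 on chromosome 6 were chr6:114833330-114834544, with folds of 15.7 and 16.3, 490307 bases from HS3ST5, and chr6:67041421-67042540, with folds of 14.4 and 17.3, 1334195 bases from EYS. On chromosome 1, a member 69535 bases from LHX8, a LIM homeodomain factor, had folds of 17.7 and 17.4 (chr1:75058021-75058899), and one inside LOC107985043 had folds of 14.7 in both libraries (chr1:83548047-83548981). In all 10 members the folds of the hDE libraries lay within 1.5 times of each other. The other 3 lay 335858 bases from TMTC2 (15.3 and 18.1), 19094 bases from SLC28A3 (13.0 and 15.0) and 207833 bases from METTL15 (12.4 and 11.9). Peaks of the hAFE libraries lay 89 and 116 bases from the SLC28A3 member, and an hPFE peak 146 bases from it. The nearest peak of another stage was 425 bases from the TMTC2 member, 504 from the LHX8 member and 531 from the LOC107985043 member. The rest of the 10 had no such peak within 1 kb. Apart from KHDRBS2 and LOC107985043, none of the 10 lay inside a protein-coding gene.

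Position beyond 1 kb from a gene end was not used by the rule. Of the members, 1515 (40.1%, 95% Wilson interval 38.5 to 41.6, which covers counting error only) lay inside a protein-coding gene, against 46.0% of all distal regions and 48.0% of the 8062 distal regions strong in all 7 libraries (5.39% of distal regions). Regions open only in hESC (n = 1357, 0.906% of distal regions) were inside genes in 41.4% and those open only in hAFE (n = 1417, 0.947%) in 44.2%. For regions open only in the single hPFE library (n = 11346, 7.58%) it was 45.6%. Exons, introns and untranslated regions were not told apart, since the annotation used gives gene spans.

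The median member lay 82226.5 bases from the nearest gene end, against 53588 bases for all distal regions and 22669 bases for regions strong in all 7 libraries. For regions open only in hESC, only in hAFE and only in hPFE the medians were 63143, 69858 and 72899 bases. By the median, members lay farther out than each of these classes, but without hDE replicate 2 their median was 72633 bases, below that of the hPFE class. Of the members, 1264 members (33.4%) had no protein-coding gene within 100 kb, against 24.0% of all distal regions. At the far end, 402 members (10.6%) were more than 500 kb from any gene end, against 6.71%, and the farthest was 2131742 bases away. Only 499 members (13.2%) were within 10 kb, against 17.0% of all distal regions and 30.7% of those strong in all 7 libraries.

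**Figure D2:**
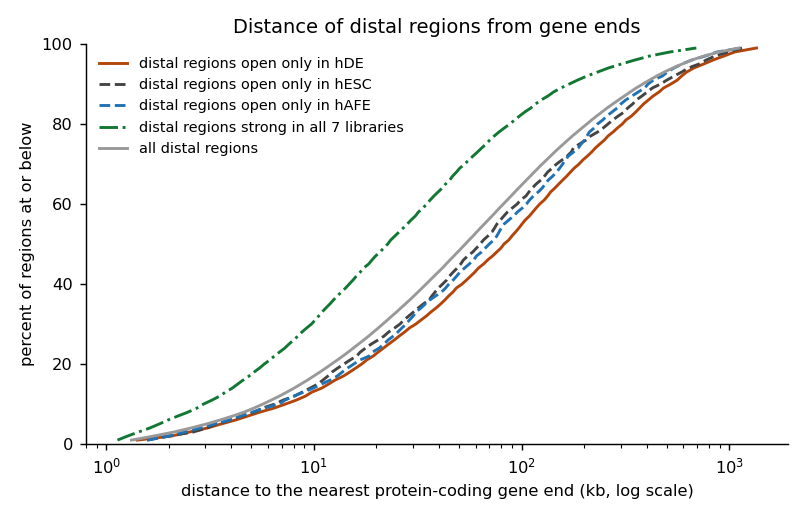
Cumulative percent of distal regions (y axis) by distance to the nearest end of a protein-coding gene (x axis, kb, log scale), 1 line per class. The line of the members is the farthest to the right over most of its length, with a median of 82226.5 bases against 22669 bases for regions strong in all 7 libraries.

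Long noncoding RNA genes were overlapped by 674 members (17.8%), close to the 18.4% of all distal regions. Members near an end of such a gene were fewer, 107 (2.83%), against 4.99% of all distal regions and 14.7% of those strong in all 7 libraries.

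Chromosome X had the largest share of members among its distal regions. There 166 of 3433 distal regions (4.84%) were members, against 2.53% genome-wide, and members made up 20.1% of the X regions strong in both hDE libraries, against 10.2% genome-wide. Chromosome 4 followed with 3.55%, and the lowest shares were on chromosomes 22 (1.14%) and 19 (1.104%). Regions open only in hAFE also took a larger share of X (1.84% against 0.947%), and those open only in hESC took 1.19% against 0.906%. X held 2.25% and 2.44% of the strong distal regions of the hDE libraries and 1.77% to 2.36% of those of the other 5, and the part of this in the members' share was not tested.

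Peaks beside the members were counted outside the region itself, although the rule also removed regions into which a neighbouring peak of the other 5 libraries reached, and so lowers these libraries' shares close by. Within 1 kb of the region, a peak of any number was found for 14.6% and 14.0% of members in the hESC libraries, 16.2% and 15.7% in hAFE and 13.8% in hPFE, against 25.3% and 29.2% in hDE. Over all distal regions the shares were 24.9% to 27.5% in the other 5 libraries and 26.3% and 31.3% in hDE. For peaks of any number, the members' hDE shares were thus slightly below those of all distal regions. For strong peaks within 1 kb they were above, 9.36% and 9.78% of members against 5.35% and 5.67% of all distal regions. In the other 5 libraries, strong peaks lay there for 4.05% to 5.31% of members and 4.77% to 5.78% of all distal regions. None of the other 5 libraries had a peak of any number within 1 kb at 2365 members (62.5%), while all 5 had one at 108 members (2.86%). Within 10 kb, 72.6% to 78.9% of members had a peak in each of the other 5 libraries. Over all distal regions this was 81.2% to 83.8%. Regions open only in hESC or only in hAFE likewise had more peaks within 1 kb in their own stage (22.4% to 25.4%) than in the others (13.3% to 16.7%).

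**Figure D3:**
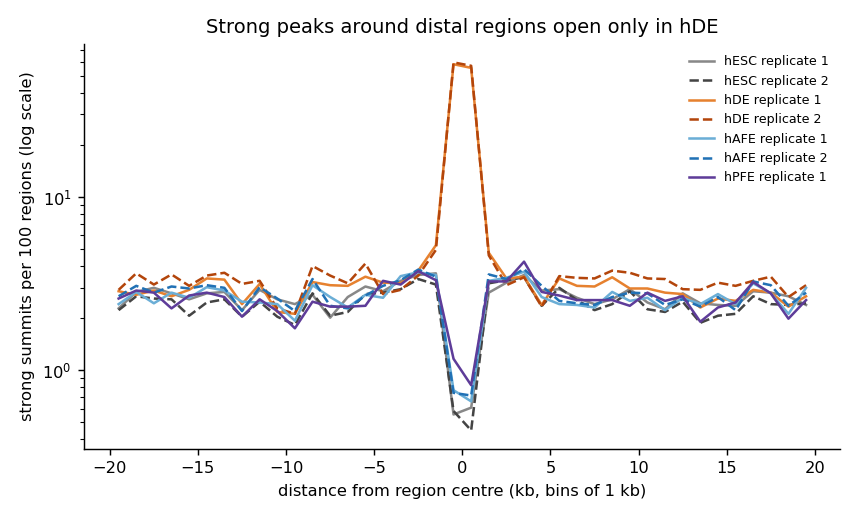
Number of strong summits per 100 members (y axis, log scale) by distance from the region's centre (x axis, bins of 1 kb), 1 line per library. In the 2 central bins the hDE libraries reach 55.5 to 59.7 and the other 5 libraries 0.449 to 1.16, which the rule sets, and more than 2 kb away all 7 libraries lie between 1.75 and 4.23.

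With neighbours chained at 50 kb, 3138 members stood alone, 280 pairs formed, and 27 groups of 3 or more held 84 members. Another member lay within 50 kb of 17.0% of members. A region of the same class lay that near for 5.38% of regions open only in hESC, 8.82% of those only in hAFE and 42.1% of those only in hPFE, classes of 1357, 1417 and 11346 regions. The largest groups of members held 4. All 4 distal regions of chr2:160611398-160645595 were members, with folds from 6.13 to 9.02 in replicate 1 and from 8.07 to 15.3 in replicate 2, and the nearest gene, RBMS1, was 117591 bases away. In TENM2, a teneurin that acts in cell adhesion, 4 of 8 distal regions of chr5:167554446-167596481 were members.

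A further group of 4 among 7 distal regions lay at chr4:10837274-10903129, more than 100 kb from the nearest gene. At DDX18, an RNA helicase gene, all 3 distal regions of chr2:117851982-117855035 were members. Inside KLHL1, all 3 of chr13:70013148-70020773 were members, with folds from 6.99 to 13.6 in replicate 1 and from 15.1 to 23.1 in replicate 2. Regions in 1 group share a neighbourhood and were not counted as separate evidence.

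Each member was assigned to the protein-coding gene that held it or had the nearest end within 100 kb. By this, 2518 members had a gene, or 2.21% of the 113699 distal regions with one, and 1952 genes had a member (9.77% of 19974). A single member was found at 1560 genes, 2 at 279, 3 at 77, 4 at 19, 5 at 12, 6 at 4 and 9 at 1. Genes with a member inside had a median length of 186 kb, against 52.4 kb for genes with any distal region inside and 24.2 kb for all genes. The part of gene length in these counts was not tested.

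LRRC4C, a synaptic adhesion protein that binds netrin-G, had the most members, 9 of its 75 distal regions, all inside the gene. Their folds ran from 5.02 to 12.8 in replicate 1 and from 11.5 to 19.1 in replicate 2, the strongest by peak number being chr11:41274437-41275264 (12.8 and 18.4). The gene is 1345 kb long. Members made up 9 of its 19 distal regions strong in both hDE libraries.

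Next came 4 genes with 6 members each. In NBAS, which acts in transport from the Golgi to the endoplasmic reticulum, 6 of 55 distal regions were members, with folds from 4.58 to 12.1 and from 6.80 to 19.0. For DIAPH3, a formin, the count was 6 of 47. For GRM7, a metabotropic glutamate receptor, it was 6 of 63, and for TENM2 6 of 109. The NBAS and LRRC4C members lay inside their genes, while 4 of the 6 DIAPH3 members lay outside.

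Another 12 genes had 5 members each, of which 7 are described by the naming rule. PRKG1, the cGMP-dependent kinase, had 5 among 80 distal regions, all inside its 1307 kb. One of them, chr10:51800503-51801238, had folds of 11.9 and 22.2 and stood 88.4 times above background in replicate 2, at peak number 398, the best of any member there. The other 4 PRKG1 members were weaker in replicate 1, with folds from 4.84 to 5.56, and ran from 10.9 to 21.5 in replicate 2. CTNNA2 (an alpha-catenin, 5 of 105), KCNIP4 (a potassium channel partner, 5 of 75), PARD3B (a polarity protein, 5 of 73), SEMA6D (a semaphorin, 5 of 60), CDH12 (a cadherin, 5 of 53) and SLC9A9 (an endosomal sodium and proton exchanger, 5 of 49) had the same number.

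Strong distal regions at marker genes were set beside the label. GATA6, a zinc finger factor of endoderm, had 8 strong distal regions in each hDE library, against 0 and 1 in hESC, 5 and 4 in hAFE and 5 in hPFE. For EOMES the numbers were 12 and 11 in hDE, 8 and 8 in hESC, 5 and 7 in hAFE and 3 in hPFE, and for FOXA2 they were 12 and 10, 7 and 9, 5 and 8, and 4 in the same order. The stem cell factor NANOG had 1 strong distal region in each hESC library and 0 in every other library. For POU5F1 the hESC numbers were 2 and 5 and the hDE numbers 2 and 0, while hPFE had 4 and the hAFE libraries 3 and 2. At SOX2 the hESC libraries had 5 and 10, those of hDE 4 and 2, both hAFE libraries 9, and hPFE 4. At POU5F1 and SOX2, hESC replicate 1 was thus not above every library of the later stages. For GATA6, EOMES and FOXA2, both hDE libraries were thus above each of the other 5. These numbers include the members, 3 each at GATA6 and EOMES and 0 at FOXA2. The rule makes members strong in hDE and absent elsewhere, so at GATA6 and EOMES the order does not check the label. GSC (9 and 7 in hDE, at most 6 in the others), LHX1 (10 and 7, at most 6) and LEFTY2 (4 and 3, at most 2) had the same order and no member. MIXL1, NODAL, LEFTY1 and the markers that follow did not have it. SOX17 had 5 and 6 in hDE against 6 and 8 in hAFE, CXCR4 had 3 and 6 against 6 and 4 in hAFE, GATA4 had 11 and 9 against 11 in hESC replicate 2, and PRDM1 had 14 and 11 against 15 in hAFE replicate 1. CER1, a secreted Nodal antagonist of endoderm, had no distal region in any library.

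On the list of definitive endoderm and mesendoderm genes, 11 of 322 distal regions (3.42%) were members, against 2.21% at all protein-coding genes. They fell at 7 of 29 genes, which were GATA6 and EOMES with 3 each and CXCR4, GATA3, SOX17, ROR2 and GATA4 with 1 each. Among the list's 119 distal regions strong in both hDE libraries, 9.24% were members, close to the 8.84% at all genes. Members were thus in the minority of the hDE-open distal regions around these genes, as they were around all genes. The list was written with results of these data known and is no independent evidence of a direction.

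At GATA6, the members lay 67257 and 10010 bases before the gene and 69143 bases beyond its far end. The first, chr18:22101610-22102332, had folds of 6.31 and 8.83, and the last, chr18:22271671-22272655, had folds of 10.7 and 17.2. None of the 3 had a peak of another library within 2.5 kb, the nearest being an hPFE peak 2533 bases from the first. The middle member stood 28.2 and 48.1 times above background, the highest of the 3.

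EOMES showed a different arrangement. The strongest of its members, chr3:27714040-27714668, lay 1285 bases beyond the gene's end and stood 44.5 and 78.6 times above background, and every other library had a peak 128 to 557 bases away from it. The other EOMES members, chr3:27673459-27674090 (folds 5.55 and 9.08) and chr3:27770387-27771176 (7.09 and 12.01), lay 41863 and 47674 bases from the gene with no other library's peak within 1 kb. The strongest EOMES member thus adjoined chromatin with peaks at every stage, and the GATA6 members did not.

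**Figure D4:**
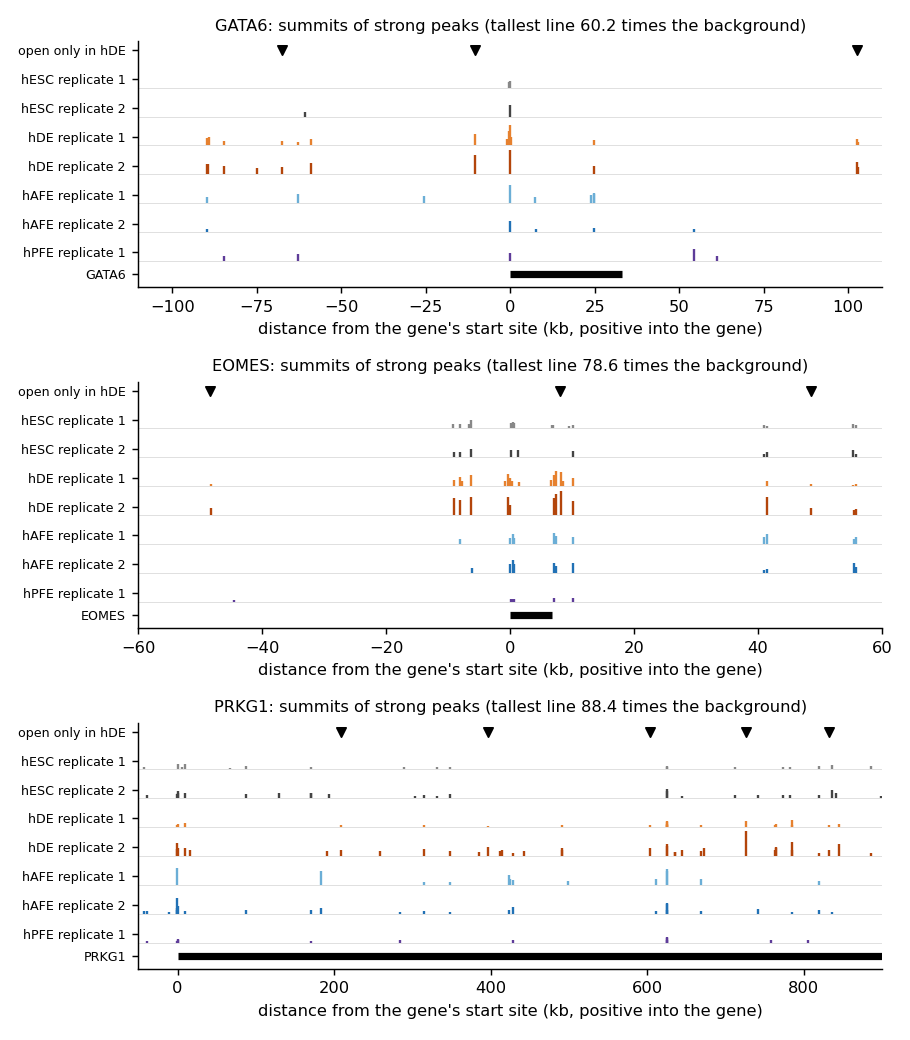
Summits of strong peaks in each of the 7 libraries around GATA6, EOMES and PRKG1 (x axis, distance from the gene's start site in kb), with line height giving the summit over its library's genome-wide background, scaled in each panel to the tallest line (60.2, 78.6 and 88.4 times), triangles marking members and the black bar marking the gene, whose far end is beyond the plot for PRKG1 (1307 kb). GATA6 has members on both sides, EOMES one 1285 bases beyond its end, and PRKG1 all 5 inside.

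Single members were found at some other endoderm genes. CXCR4, the chemokine receptor used to sort definitive endoderm, had one 18743 bases before the gene (chr2:136136892-136137512, folds 7.70 and 14.0), with an hESC replicate 1 peak 303 bases away. The GATA4 member lay inside the gene (chr8:11718664-11719232, 6.57 and 7.38) and had a peak of each other library 649 to 799 bases away. SOX17, a driver of endoderm identity, had one 90140 bases away (chr8:54366794-54367795, 5.30 and 9.92). An hESC replicate 2 peak lay 229 bases from this member, and a peak of each hAFE library 262 bases from it. The GATA3 member, inside the gene at chr10:8047769-8048295, had the lowest folds of the list's named members, 4.04 and 4.76. An hESC replicate 1 peak lay 64 bases from it.

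No member was assigned to FOXA2, MIXL1, GSC, LHX1, PRDM1, NODAL, LEFTY1 or LEFTY2. Each of these genes still had a distal region strong in both hDE libraries, but MIXL1, NODAL and LEFTY1 had only 1. The ends of NODAL had no strong peak in either hDE library, and those of LEFTY2 had one in replicate 1 only. FOXA2 had 10 distal regions strong in both hDE libraries, PRDM1 11, LHX1 7, GSC 6 and LEFTY2 3, each with a peak in 1 or more of the other 5 libraries. No member was assigned to POU5F1, NANOG or SOX2 either.

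Among signalling genes, shares of distal regions were at or below the 2.21% of all genes. For Nodal and TGF-beta genes 3 of 198 distal regions (1.52%) were members, among them those at the proprotein convertases PCSK5 (6.59 and 16.4) and PCSK6 (5.13 and 12.2), which process such ligands. For WNT genes it was 8 of 365 (2.19%), of which LGR5, the R-spondin receptor, had 3 and its ligand gene RSPO3 had 1 (10.3 and 16.6). BMP genes had 5 of 241 (2.07%), among them the antagonist NOG (7.15 and 11.9) and the transducer SMAD1 (7.26 and 10.7). FGF genes had 3 of 234 (1.28%), at SPRY2 and SPRED1, both feedback inhibitors, and FGF17. Counted by gene, 21.4% of WNT genes, 26.3% of BMP genes and 13.0% each of Nodal and FGF genes had a member, against 9.77% of all genes. This count takes no account of how many distal regions each gene has. Of regions strong in both hDE libraries, members were 8.25% at WNT, 7.35% at BMP, 6.0% at Nodal and 5.0% at FGF genes. At all genes this was 8.84%, above each of these lists.

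Lists of later endoderm were near the background as well. Anterior foregut and pharyngeal genes had 8 of 334 (2.4%), with 2 each at FOXP2 and SIX4, and liver, pancreas and hindgut genes had 3 of 167 (1.8%), among them those at CPS1 (8.52 and 16.3) and PROX1 (6.01 and 12.8). The FOXP2 members, inside the gene, had folds of 8.25 and 15.4 at chr7:114595571-114595921 and of 10.6 and 18.7 at chr7:114631923-114632291. At the second FOXP2 member, each hESC and hAFE library had a peak 187 to 251 bases away, while none lay within 4 kb of the first. The SIX4 members were weak, with folds of 2.93 and 4.36 and of 3.07 and 5.23. Every other library had a peak 44 to 169 bases from the first SIX4 member, and the nearest to the second was 2315 bases away.

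Among lists for other cell types, extraembryonic endoderm had the highest share, 11 of 226 distal regions (4.87%) at 8 of 16 genes. GATA6, SOX17 and GATA4, with 5 of these members, stand on the definitive endoderm list too. The remaining members were at the basement membrane genes LAMA1 (2), LAMC1 and COL4A1 and the endocytic receptor genes LRP2 and CUBN. Mesoderm and cardiac genes had 5 of 206 (2.43%), with 2 at HAND1 (7.22 and 15.4, and 4.32 and 7.22) and 1 at MEF2C (11.5 and 15.1). Neural ectoderm genes had 2 of 189 (1.06%), at SIX3 and LHX2. Of regions strong in both hDE libraries, members were 13.75% at extraembryonic endoderm genes, against 8.84% at all genes. By this measure mesoderm and cardiac genes had 9.09% and neural ectoderm genes 4.76%. The part of such other cells in the members was not tested.

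Pluripotency genes had 3 of 192 (1.56%), 2 of them at SFRP2, a WNT antagonist, with folds of 7.45 and 10.8 and of 8.66 and 13.0, and 1 at KLF4. Epithelial and transition regulators had 4 of 224 (1.79%), at CDH6, CDH2, GRHL2 and ESRP1. Axon guidance genes, which also act in migration of other cells, had 28 of 907 (3.09%) at 15 of 25 genes. SEMA6D had 5, and NRP1, NRP2 and SEMA3E had 3 each. Housekeeping genes had 0 of 50. Of regions strong in both hDE libraries, members were 14.1% at axon guidance genes, against 8.84% at all genes. By this measure epithelial and transition regulators had 8.33% and pluripotency genes 6.12%.

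At NRP1, a semaphorin and VEGF co-receptor, all 3 members lay inside the gene, and the one at chr10:33315649-33316355 had folds of 12.9 and 20.7 with no other library's peak within 5 kb. The NRP2 members included the lowest fold of any member in replicate 2, 3.78 at chr2:205680871-205681294, where replicate 1 had 2.87. SEMA6D members ran from 4.68 to 9.79 in replicate 1 and from 4.65 to 20.2 in replicate 2. Among the 3 SEMA3E members, folds ran from 4.90 to 7.61 and from 13.6 to 16.2.

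**Figure D5:**
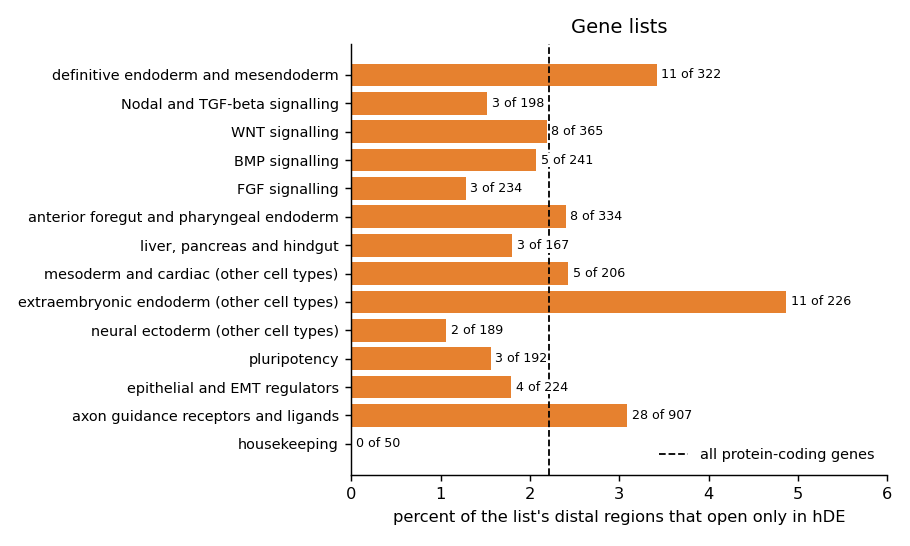
Percent of each gene list's distal regions that were members (x axis, bars from 0), with member counts beside the bars and a dashed line at the 2.21% of all protein-coding genes. Extraembryonic endoderm (4.87%), definitive endoderm and mesendoderm (3.42%) and axon guidance (3.09%) are the longest bars, and housekeeping genes have none.

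The ends of the 1952 genes with a member were open at all stages in most cases. A strong peak lay within 1 kb of an end in 77.4% and 73.6% of them in the hDE libraries, 78.5% and 76.4% in hESC, 76.6% and 79.6% in hAFE and 76.7% in hPFE. Over all 19974 genes these shares were 63.8% to 71.5%. Neither hDE library was the highest of the 7 in either set. For 1292 of the 1952 genes (66.2%) an end was open in all 7 libraries, against 59.0% of all genes, and for 12 (0.615%) in both hDE libraries alone, against 0.421%. Genes nearest to regions open only in hESC (n = 888) and only in hAFE (n = 920) had an end open in all 7 libraries in 64.9% and 64.0%. Ends open in hDE alone made up 0.225% and 0.543% of these genes. The higher share open in all 7 libraries is thus not particular to genes with a member.

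MicroRNA genes lay within 10 kb of 24 of the 3782 members, 27 genes in all, and 3 members overlapped one (MIR12113, MIR3169 and MIR4768). The same share was not computed over all distal regions, so nearness to microRNA genes is not shown to be particular to members. Mature sequences from RefSeq are shown for the microRNAs of 2 such neighbourhoods, with the seed (bases 2 to 8) in capitals, to show the seeds they share.
hsa-miR-181a-5p: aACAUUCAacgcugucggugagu
hsa-miR-181b-5p: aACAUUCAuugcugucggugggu
hsa-miR-372-3p: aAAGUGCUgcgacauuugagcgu
hsa-miR-373-3p: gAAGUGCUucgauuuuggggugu

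The miR-181a and miR-181b forms share the seed ACAUUCA, and their genes MIR181A1 and MIR181B1 lie between members chr1:198853574-198854115 (folds 5.20 and 9.51) and chr1:198860284-198860759 (5.62 and 8.19). The nearer member was 1131 bases from MIR181A1. The miR-372 and miR-373 forms share the seed AAGUGCU, and their genes lie 6890 and 7705 bases from a member at chr19:53780467-53781000 with folds of 10.97 and 15.3. This cluster of microRNAs is best known from human embryonic stem cells, while the member beside it, as the rule asks, had no peak in the hESC libraries. The MIR32 gene lay 927 bases from a member with folds of 9.29 and 12.6.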

How the data were processed

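ATAC-seq peak lists of 7 libraries of H1 cells were used, 1 per library and none pooled. The submitters' processing notes name hg38 as the build and DiffBind as a tool. The aligner and peak caller were not given in the sources used here. Deposited file names record trimming, removal of duplicate and mitochondrial reads, use of Tn5 cut positions, a p threshold (0.01) and a ceiling of 300000 peaks. Each deposited peak holds the authors' fold enrichment (a ratio over local background), −log10 p and −log10 q values, and a display score, which was not used.

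Fold and −log10 p could be written as (P + 1) / (L + 1) and a Poisson tail with whole P in 100% of peaks, to within 0.001. P was read as the cut sites at the summit, and the commonest L of peaks numbered over 150000 served as genome-wide background. It ran from 2.11 to 7.94 over the libraries, and read totals were not used here. Intervals cover counting error only.

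Overlap meant at least 1 bp. Genes were the 19974 protein-coding and 18177 long noncoding entries of RefSeq's GRCh38.p14 table, which gives spans without exons. No test was made, since the peaks chose the members. The plan called for motif shares at the members' summits, and promoter windows were used in their place because no genome was at hand. Named are the 12 genes with most members, the 10 members with the best worse peak number, up to 4 genes of each list, and fixed markers. Some genes that this rule names are not reported here. Members and the 14 lists (295 genes, 294 found) were chosen with earlier results of these data known. Alternatives varied the strong limit, absence, distance, overlap, gene window and each library. Counting was tested on simulated data. Tools were Python 3.11.15, pandas 2.3.3, NumPy 2.4.6, SciPy 1.17.1 and Matplotlib 3.10.9.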

Additional observations from a re-analysis of the deposited data

How the results depend on the processing

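The 4 results recomputed were the number of members (3782), the share inside genes (40.1%), the median distance to a gene end (82226.5 bases) and the members at definitive endoderm genes (11). A strong limit of 40000 gave 1269 members and 4 at these genes, and a limit of 120000 gave 6720 and 17. Absence of strong peaks only gave 10897 members, a median of 75185 bases and 40 at these genes. Distances over 5 kb and over 10 kb gave medians of 95961 and 106840 bases, the latter with a share of 37.6%. Leaving out each library in turn gave 4073 to 8874 members, shares of 38.3% to 41.4%, medians of 72633 to 96229 bases and 12 to 16 at these genes. The highest number, 8874, and the highest median came without hDE replicate 1. Absence also within 1 kb outside the region, added after seeing the data as was a cover of 50% of the region, gave 2365 members, 37.7%, 93431 bases and 6. In the other alternatives run, values stayed within 1.5 times (numbers) or the main value's 95% interval (38.5% to 41.6% and 77371 to 88408 bases). Requiring 50% of the strong peak changes nothing by construction, since it lies whole within its region. The alternatives for motif shares were not run, since no genome was at hand. No paired analysis was possible because no result comes from a test. Unequal depth limits what absence from a list shows.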

Other observations

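The 12 genes with a member whose ends had a strong peak in both hDE libraries and in none of the other 5 were picked out after their values were seen. They were CEP85L, TESPA1, NR5A2 and DHRS2, with 2 members each, and GABRA6, ZPLD1, SLC7A2, OR51M1, STATH, IZUMO3, TRPA1 and KCNK9, with 1 each. NR5A2, a nuclear receptor of the liver, pancreas and early embryo, had members at chr1:199964450-199965026 (folds 7.47 and 20.5) and chr1:200168890-200169238 (5.32 and 11.6). CEP85L, a centrosomal protein, had both of its members inside the gene, at chr6:118500047-118501000 (9.05 and 16.7) and chr6:118661848-118662347 (5.02 and 12.1). Of the 8 members at CEP85L, TESPA1, NR5A2 and DHRS2, the highest fold in hDE replicate 2 was 24.3 at TESPA1, chr12:54919612-54920370, where replicate 1 had 7.53. Over all 19974 genes, 84 had ends open in hDE alone (0.421%).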
